A study of Mus musculus with 10 samples.

Results

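A set of 10 genes of hepatocyte receptors (Asgr1, Asgr2, Lrp1, Lrpap1, Scarb1, Igf2r, Pigr, Fcgrt, Sort1 and Sorl1) were followed in mouse livers after silencing of Rab5, the small GTPase that organises early endosomes. Of these, Lrpap1 encodes a chaperone of Lrp1 and not a receptor, but it is counted below with the receptor genes. The genes were taken by symbol from the annotation of the array, with every probe set that names only that gene. This gave 22 probe sets for the 10 genes, out of 34945 probe sets with 1 gene symbol. All livers came from male C57BL/6 NHsd mice, an inbred strain, and their age is not given in the sources used here. The 3 groups were livers of mice injected with phosphate-buffered saline (PBS, 2 arrays), with lipid nanoparticles carrying a control siRNA (4 arrays), and with lipid nanoparticles carrying siRNAs against all Rab5 genes (4 arrays). Injection was into the tail vein, the siRNA dose was 1.5 mg/kg, and liver was collected 5 days later. The control siRNA is called scrambled in the sample titles but luciferase in the series' design. Whole liver RNA was measured, so every value is a mixture of hepatocytes and other liver cells, and no second set of siRNAs against Rab5 was among the groups.

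These receptors bring material into the hepatocyte or move it between compartments inside it. In the route typical of endocytosis, a receptor binds its ligand at the cell surface, is gathered into a vesicle and reaches the early endosome. From there it returns to the surface, crosses the cell to the bile canaliculus, or is sent on to lysosomes. Not every member of the set follows this route. Asgr1 and Asgr2 clear plasma glycoproteins that have lost their terminal sialic acid, Lrp1 clears lipoprotein remnants and proteases bound to their inhibitors, and Scarb1 takes cholesterol from high density lipoprotein. Pigr and Fcgrt transport immunoglobulins, while Igf2r, Sort1 and Sorl1 sort cargo between the Golgi, endosomes and lysosomes. The protein side of these events was not measured here.

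Values are log2 expression values of the deposited table, and differences are differences of group means on that scale. A probe set is a group of short probes that together report 1 stretch of a transcript, usually toward its 3' end. Probe sets with values over 4.33 (the table's median) in 2 or more arrays were kept for testing. Of the 22 receptor probe sets 20 were kept, and each gene had at least 1. A probe set is said to rise or fall where the adjusted p of limma (a linear model over all 21068 kept probe sets, Benjamini-Hochberg adjusted) was under 0.05. The titles number the livers without stating separate mice, so the spread behind each p-value is that between these livers and may be partly technical.

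The siRNA targets were checked first. Rab5a read 8.33 to 8.81 in the control siRNA livers and 6.28 to 7.16 in the Rab5 siRNA livers, a fall to 28.6% of the control signal. Rab5c read 9.03 to 9.40 and 6.99 to 7.36, a fall to 25.1%. The kept probe set of Rab5b lay near the filter in both groups, at 4.34 and 4.10, and did not pass. Markers of hepatocytes were high in every array, the mean log2 value of 11 of them lying between 12.67 and 12.77, so the labelled tissue and its markers match.

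For Rab5 siRNA against control siRNA, 3 of the 20 kept receptor probe sets fell and 0 rose, a share of 15.0% against 22.0% of all kept probe sets. In the direction of the 3 calls the background was 9.08% of all kept probe sets, with 12.9% in the other. The calls belonged to 2 genes, Pigr with both of its probe sets and Fcgrt with its single one. The median difference of the 20 was -0.06, and that of all kept probe sets was 0.00. Their range ran from -0.91 for Pigr to 0.29 for Igf2r. The share of receptor probe sets called was thus not above that of the whole table.

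**Figure D1:**
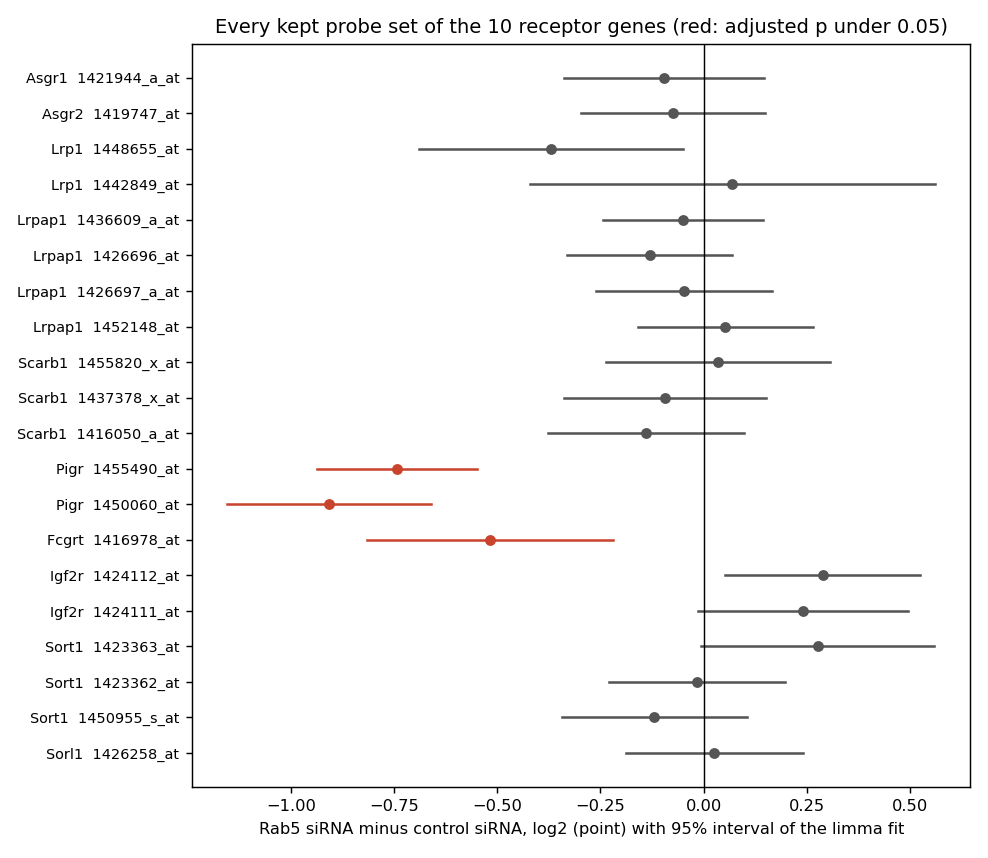
Difference of Rab5 siRNA minus control siRNA (log2, horizontal axis) for each of the 20 kept probe sets of the receptor genes, 1 per line, with the 95% interval of the limma fit as a bar. The 2 Pigr probe sets (-0.74 and -0.91) and the Fcgrt probe set (-0.52), in red, have adjusted p under 0.05, and the other 17 lie between -0.37 and 0.29.

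Pigr, the polymeric immunoglobulin receptor, carries dimeric immunoglobulin A across epithelial cells and is released into bile and mucus as secretory component. On its brighter probe set (1455490_at) the control siRNA livers read 11.54, 11.65, 11.72 and 11.56, and the Rab5 siRNA livers 10.88, 10.89, 10.79 and 10.95. All 4 Rab5 siRNA livers lay below all 4 controls, with a gap far wider than the spread inside either group. The PBS livers, at 11.78 and 11.83, were the highest. The difference was -0.74 (SE 0.0897, adjusted p = 6.72e-05 by limma), which leaves 59.8% of the control signal. The other Pigr probe set (1450060_at) read 10.68, 10.63, 10.61 and 10.84 with control siRNA and 9.89, 9.76, 9.57 and 9.90 with Rab5 siRNA. Here too the groups did not overlap, as was so for 24.0% of all kept probe sets. Its difference was -0.91 (SE 0.114, adjusted p = 9.13e-05 by limma), leaving 53.3% of the control signal. In whole tissue, fewer cells that express a gene and less RNA per cell cannot be told apart.

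Fcgrt encodes the heavy chain of the neonatal Fc receptor, which binds immunoglobulin G and albumin in acidic endosomes and returns them to the blood. Its probe set (1416978_at) read 9.98, 9.83, 10.03 and 9.64 in the control siRNA livers and 9.68, 9.28, 9.43 and 9.03 in the Rab5 siRNA livers. The groups overlapped: Rab5 siRNA replicate 1 was just above control replicate 4. The PBS livers, at 10.03 and 9.91, lay in the upper part of the control siRNA values. Fcgrt fell by 0.52 on the log2 scale (SE 0.139, adjusted p = 0.0165 by limma), to 69.9% of the control signal. Without control siRNA replicate 3 the difference was -0.47 (adjusted p = 0.0507), and without the arrays numbered 2, chosen after seeing the data for their 3' to 5' difference of Gapdh, it was -0.50 (adjusted p = 0.116). Over all alternatives run the adjusted p lay between 0.00231 and 0.116, with the difference always negative.

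The partners of these transporters did not all move with them. B2m, the light chain that pairs with the Fcgrt heavy chain, had means of 12.93 ± 0.101 (control siRNA) and 12.96 ± 0.0711 (Rab5 siRNA; SD, n = 4 each), a difference of 0.02 that did not pass (adjusted p = 0.890 by limma). Alb, the albumin that Fcgrt recycles, stood at 0.05 and did not pass either. The difference between Fcgrt and B2m inside each array changed by -0.54 between the groups, with adjusted p = 0.143 in an exact two-sided permutation test over 8 arrays, corrected for 5 pairs of genes. Such a test of 4 against 4 arrays cannot go below 0.0286 before correction. Taken by same-numbered pairs, the change was negative in 4 of 4 pairs, from -0.63 to -0.43, with p = 0.125 in an exact two-sided sign-flip test, the smallest that 4 pairs can give. Among the cargo of Pigr, Ighm, the immunoglobulin M heavy chain, fell by 1.38 on the log2 scale (SE 0.162). Jchain, the chain that joins immunoglobulin M and A into polymers, was dim, at 4.04 to 5.05 with control siRNA and 3.29 to 3.87 with Rab5 siRNA. It passed the filter only through 1 PBS and 1 control siRNA array, so its call (adjusted p = 0.0285 by limma) is given as a description only. These transcripts come from B and plasma cells, not hepatocytes. Setting Pigr against Fcgrt inside each array gave -0.22 with adjusted p = 0.393 in the same exact permutation test, so a difference in size between these falls was not shown. That value was -0.12 without Rab5 siRNA replicate 1 and -0.36 without replicate 4.

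The 250 bases before the transcription start are shown for Pigr and Fcgrt, because their transcripts fell, and for Igf2r, because its brighter probe set separated the groups in the other direction without passing. They come from RefSeq (GRCm38.p6) and run 5′ to 3′ on the strand of the gene. Capitals mark matches to any of 7 motifs searched on both strands: the E box CACGTG, the kappa B pattern (GGG, any 5 bases, CC), the interferon response core (GAAA, any 2 bases, GAAA), the C/EBP pattern TTGCNNAA, the TATA box TATAAA, the GC box GGGCGG and the CCAAT box CCAAT. The GC box can lie inside a kappa B match. The Pigr window is chr1:130826434-130826683 on the + strand, that of Fcgrt chr7:45103823-45104072 on the - strand, and that of Igf2r chr17:12769707-12769956 on the - strand.
Pigr: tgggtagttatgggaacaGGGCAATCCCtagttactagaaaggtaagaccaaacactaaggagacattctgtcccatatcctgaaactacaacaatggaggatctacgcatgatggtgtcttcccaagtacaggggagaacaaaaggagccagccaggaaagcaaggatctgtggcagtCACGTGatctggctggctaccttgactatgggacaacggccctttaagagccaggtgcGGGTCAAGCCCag
Fcgrt: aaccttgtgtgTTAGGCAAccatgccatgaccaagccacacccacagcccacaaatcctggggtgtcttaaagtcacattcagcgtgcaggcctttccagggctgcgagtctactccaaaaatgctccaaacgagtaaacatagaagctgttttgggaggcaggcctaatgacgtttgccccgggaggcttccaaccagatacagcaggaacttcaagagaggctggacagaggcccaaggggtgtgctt
Igf2r: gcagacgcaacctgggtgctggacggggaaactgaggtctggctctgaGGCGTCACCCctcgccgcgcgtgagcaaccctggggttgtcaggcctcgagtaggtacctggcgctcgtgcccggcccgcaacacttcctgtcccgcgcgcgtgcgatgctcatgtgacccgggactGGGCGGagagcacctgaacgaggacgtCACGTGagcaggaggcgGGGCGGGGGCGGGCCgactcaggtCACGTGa

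The Pigr window holds 1 E box, its first base 71 bases before the start, and 3 kappa B matches, 2 of which overlap next to the start. The Igf2r window holds 2 E boxes, 48 and 7 bases before the start, 3 GC boxes and 2 kappa B matches, 202 and 26 bases before it. In the Fcgrt window only the C/EBP pattern was found, 239 bases before the start. An E box is present in 6.02% of all 32851 windows of this length, the kappa B pattern in 45.8%, the C/EBP pattern in 9.56% and the GC box in 32.7%. Such matches describe the letters and show no binding. Among the other receptors with a window, Asgr2 and the upstream of 2 Sorl1 windows also held an E box, 191 and 19 bases before the start. Scarb1 and Sort1 had no entry.

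Asgr1 and Asgr2 encode the 2 subunits of the asialoglycoprotein receptor, the lectin by which hepatocytes clear desialylated glycoproteins and a common entry route for drugs aimed at these cells. Asgr1 (1421944_a_at) read 10.78, 10.51, 10.86 and 10.76 with control siRNA and 10.71, 10.58, 10.80 and 10.44 with Rab5 siRNA. The groups overlapped almost fully, and the difference of -0.10 (95% interval -0.34 to 0.15, adjusted p = 0.592 by limma) did not pass. Asgr2 (1419747_at) read 7.11, 7.08, 7.19 and 7.04 with control siRNA and 7.08, 7.11, 7.15 and 6.79 with Rab5 siRNA, a difference of -0.07 (95% interval -0.30 to 0.15, adjusted p = 0.656 by limma). Rab5 siRNA replicate 4 was the lowest of all livers for both subunits. The difference between the subunits inside an array changed by -0.02, with adjusted p = 0.657 in the exact permutation test. Both intervals end above the difference seen for Pigr.

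Lrp1, a large endocytic receptor, takes up chylomicron remnants and protease complexes with the help of heparan sulfate. Its brighter probe set (1448655_at) read 9.43, 9.77, 9.52 and 9.67 in the control siRNA livers and 9.24, 9.23, 9.55 and 8.89 in the Rab5 siRNA livers. Rab5 siRNA replicates 1, 2 and 4 lay below every control and replicate 3 lay inside the control range. The difference of -0.37 (SE 0.148, 95% interval -0.69 to -0.05, adjusted p = 0.0946 by limma) did not pass over all probe sets. It was -0.48 without Rab5 siRNA replicate 3 (adjusted p = 0.0430), -0.26 without replicate 4 (0.246) and -0.15 with the mean of both Lrp1 probe sets (0.558). The dim Lrp1 probe set (1442849_at) stood at 4.45 ± 0.594 and 4.52 ± 0.165 (SD, n = 4 each), close to the filter, and carries little information. Lrpap1, the chaperone that keeps Lrp1 from binding its ligands in the endoplasmic reticulum, had 4 kept probe sets. Their differences lay between -0.13 and 0.05 and none passed (adjusted p from 0.358 to 0.781 by limma). On the brightest of them (1436609_a_at) all 8 siRNA livers lay between 8.84 and 9.07. The difference between Lrp1 and Lrpap1 inside an array changed by -0.32, with adjusted p = 0.143 in the exact permutation test. It was -0.21 without Rab5 siRNA replicate 4 and -0.11 with the mean of each gene's probe sets.

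Scarb1, the scavenger receptor that takes up cholesterol esters from high density lipoprotein, had 3 kept probe sets, all bright. The brightest (1455820_x_at) read 9.73, 10.21, 10.02 and 9.69 with control siRNA and between 9.77 and 10.09 with Rab5 siRNA, so the Rab5 siRNA livers lay within the control range. Its difference was 0.04 (95% interval -0.24 to 0.31). The other Scarb1 probe sets stood at -0.09 and -0.14, and none of the 3 passed (adjusted p from 0.410 to 0.875 by limma). Pdzk1, the adaptor that holds the Scarb1 protein at the hepatocyte surface, had a mean of 7.80 with either siRNA. Apoa1, the main protein of high density lipoprotein, stood at 0.18 (adjusted p = 0.155 by limma) although its groups did not overlap.

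Igf2r is the cation-independent mannose 6-phosphate receptor. It delivers newly made lysosomal enzymes from the Golgi to endosomes and takes up insulin-like growth factor 2 at the surface. Its brighter probe set (1424112_at) read 7.49, 7.53, 7.49 and 7.47 with control siRNA and 7.71, 7.83, 7.75 and 7.84 with Rab5 siRNA. All 4 Rab5 siRNA livers lay above all 4 controls, whereas 1 PBS liver read 7.71, close to the lowest Rab5 siRNA liver, and the other 7.21, below every control. The difference of 0.29 (SE 0.110, 95% interval 0.05 to 0.52) had adjusted p = 0.0788 by limma and did not pass. It passed when only the 2 siRNA groups were fitted (adjusted p = 0.0364) and with array weights (0.0412). It did not pass after quantile normalization (0.23, adjusted p = 0.127) or with arrays centred on the median (0.23, 0.147). Over all alternatives run the adjusted p of limma lay between 0.0364 and 0.170, with the difference always positive. The dimmer probe set (1424111_at) overlapped between groups and stood at 0.24 (adjusted p = 0.169 by limma). Its adjusted p was 0.0431 without Rab5 siRNA replicate 1 and 0.350 without control siRNA replicate 1. M6pr, the smaller mannose 6-phosphate receptor with the same kind of cargo, was at 0.36 (SE 0.132, adjusted p = 0.0660 by limma). Igf2 itself was dim, with means of 4.77 (control siRNA) and 4.70 (Rab5 siRNA).

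Sort1 and Sorl1 belong to the VPS10 family of sorting receptors, and Sort1 is known for binding apolipoprotein B in the secretory pathway of hepatocytes. The brightest Sort1 probe set (1423363_at) read 7.67, 7.81, 7.93 and 7.42 with control siRNA and 8.002, 7.85, 7.96 and 8.12 with Rab5 siRNA. The groups overlapped at control replicate 3, and the difference of 0.28 (95% interval -0.01 to 0.56, adjusted p = 0.155 by limma) did not pass. The other Sort1 probe sets stood at -0.02 (1423362_at) and, dim, at -0.12 (1450955_s_at), so the probe sets of Sort1 do not share a direction. Sorl1 was dim: its 1 kept probe set (1426258_at) lay between 5.08 and 5.28 in all 8 siRNA livers, with a difference of 0.03 (95% interval -0.19 to 0.24). Of the 2 Sorl1 probe sets that were not kept, 1 lay between 3.43 and 3.78 in the siRNA livers and the other between 2.27 and 2.78. Apob, the cargo of Sort1, stood at -0.12 and did not pass. The difference between Sort1 and Sorl1 inside an array changed by 0.25, with adjusted p = 0.143 in the exact permutation test. It was 0.15 without control siRNA replicate 4 and 0.02 with the mean of each gene's probe sets.

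**Figure D2:**
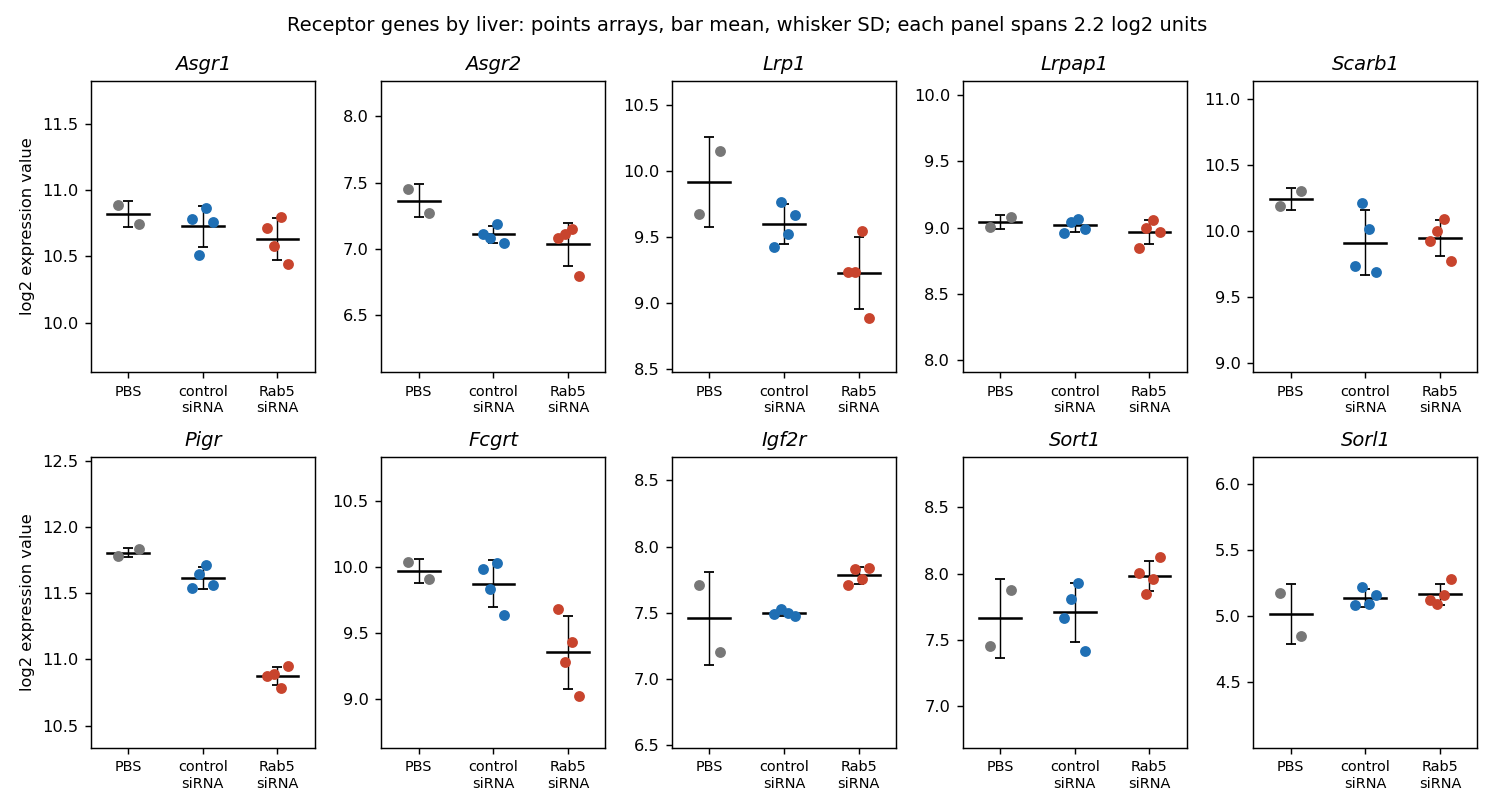
Log2 expression value (vertical axis, each panel spanning the same number of log2 units) of the brightest probe set of each receptor gene in 2 PBS, 4 control siRNA and 4 Rab5 siRNA livers. Points are arrays, bars are group means and whiskers are SD. Pigr separates the Rab5 siRNA livers (10.79 to 10.95) from the control siRNA livers (11.54 to 11.72). Igf2r separates them in the other direction (7.71 to 7.84 against 7.47 to 7.53) without passing. Fcgrt shows a lower Rab5 siRNA group that overlaps the controls, and Asgr1, Asgr2, Lrp1, Lrpap1, Scarb1, Sort1 and Sorl1 overlap.

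The nanoparticles with control siRNA were compared with PBS to see what carrier and siRNA did apart from the target. None of the 20 receptor probe sets was called, and 0 of 21068 kept probe sets (0%) were called by limma, with 890 of all and 0 of the receptors at an unadjusted p under 0.05. The receptor differences ran from -0.33 to 0.18. All 3 Scarb1 probe sets were lower with control siRNA than with PBS, by 0.27 to 0.33 on the log2 scale, which did not pass (adjusted p = 0.999 by limma for each). Asgr2 stood at -0.25 and Lrp1 at -0.32 in this comparison, likewise not passing. With 2 PBS arrays a difference of this size is hard to detect.

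For Rab5 siRNA against PBS, which shares the Rab5 siRNA arrays with the main comparison, 4 of 20 receptor probe sets fell and 0 rose. Of all kept probe sets 15.9% were called, 8.69% up and 7.17% down. Pigr fell by 0.93 (SE 0.110) and 0.97 (SE 0.140) on the log2 scale for its 2 probe sets, to 52.4% and 51.2% of the PBS signal. Fcgrt stood at -0.62 (SE 0.170, adjusted p = 0.0250 by limma). It was -0.55 without PBS replicate 1 (adjusted p = 0.187), -0.68 without PBS replicate 2 (0.0897), -0.59 without Rab5 siRNA replicate 2 (0.0603) and -0.65 without the arrays numbered 2 (0.207). The brighter Lrp1 probe set stood at -0.69 (SE 0.182, adjusted p = 0.0200 by limma), the PBS livers reading 9.67 and 10.15 and thus both above the Rab5 siRNA livers. That call ended without PBS replicate 2 (-0.45, adjusted p = 0.261), without the arrays numbered 2 (adjusted p = 0.380) and with the mean of the 2 Lrp1 probe sets (adjusted p = 0.218). The Scarb1 probe set 1416050_a_at stood at -0.41 (adjusted p = 0.0561 by limma). It passed under 4 alternatives, with adjusted p from 0.0376 to 0.0460, and not under the others in which it was fitted. Over all of them its difference lay between -0.46 and -0.33. Igf2r stood at 0.33 on its brighter probe set and did not pass (adjusted p = 0.124 by limma). That difference was 0.58 without PBS replicate 1 and 0.08 without PBS replicate 2, so it depends on which PBS array is used.

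**Figure D3:**
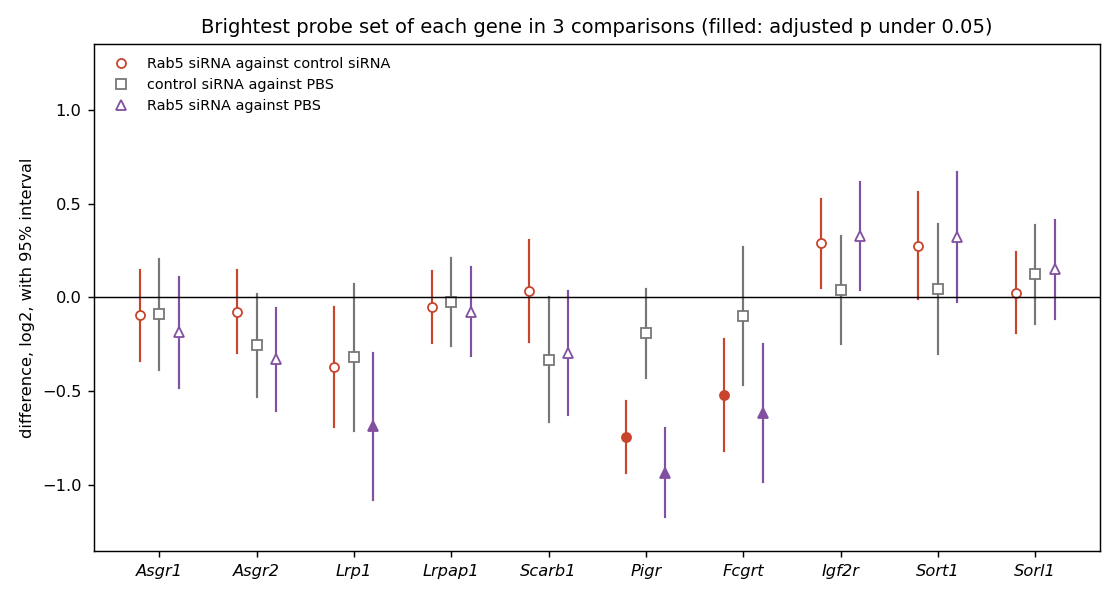
Differences (log2, vertical axis) of the brightest probe set of each receptor gene in 3 comparisons, with 95% intervals of the limma fit and filled markers where the adjusted p was under 0.05. The comparisons share arrays. Pigr and Fcgrt are filled in both comparisons of Rab5 siRNA, Lrp1 against PBS (-0.69) and not against control siRNA (-0.37), and no marker is filled for control siRNA against PBS.

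Genes around these receptors were described from lists chosen with earlier results of these data known. Each gene is represented by its kept probe set with the highest mean, and on this basis 22.6% of 12855 genes were called for Rab5 siRNA against control siRNA, 13.4% up and 9.23% down, with a median of 0.00. Of 14 measured other receptors of hepatocytes, 1 rose and 5 fell, with a median of -0.27. Egfr, the epidermal growth factor receptor, went from 10.31 ± 0.406 to 8.65 ± 0.547 (SD, n = 4 each), a difference of -1.66 (SE 0.258). Ceacam1, which promotes insulin clearance, fell by 0.56, the insulin receptor Insr by 0.55 and the iron sensor Tfr2 by 0.54 on the log2 scale (adjusted p = 0.00163, 0.00156 and 0.00398 by limma), and the lysosomal receptor Scarb2 was the other called gene. Tfrc, the transferrin receptor, rose by 0.97, and its Rab5 siRNA values ran widely from 6.89 to 8.26. On the same basis, the 10 receptor genes had 2 genes down and 0 up, with a median of -0.06.

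Among 16 measured sorting partners and enzymes of mannose 6-phosphate tagging, 2 rose and 0 fell, with a median of 0.10. These were Plin3, which binds the tails of mannose 6-phosphate receptors and also coats lipid droplets (0.56, SE 0.128), and Vps29, a subunit of the retromer that recycles Igf2r, Sort1 and Sorl1 from endosomes (0.44, SE 0.124). The other retromer subunits measured and the GGA adaptors did not pass. Of 8 measured adaptors, chaperones and turnover genes, 1 rose, the clathrin adaptor Dab2 (0.39, SE 0.124, adjusted p = 0.0376 by limma), and 0 fell, with a median of 0.05.

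Of 16 measured ligands and cargo genes 3 rose and 3 fell, with a median of 0.11. App, the amyloid precursor that Sorl1 sorts, went from 9.41 ± 0.210 to 10.37 ± 0.144 (SD, n = 4 each), a rise of 0.96 (SE 0.120). Lpl, lipoprotein lipase, which also binds Lrp1, rose by 1.67 (SE 0.223), and Grn, the progranulin that Sort1 takes up, rose by 0.54 (SE 0.121). The 3 that fell were Ighm, Apoa2 and Jchain, the last with the limit of the filter given above. Apoe, the ligand through which Lrp1 takes up remnants, stood at -0.28 just short of the threshold (adjusted p = 0.05004 by limma), its groups not overlapping.

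**Figure D4:**
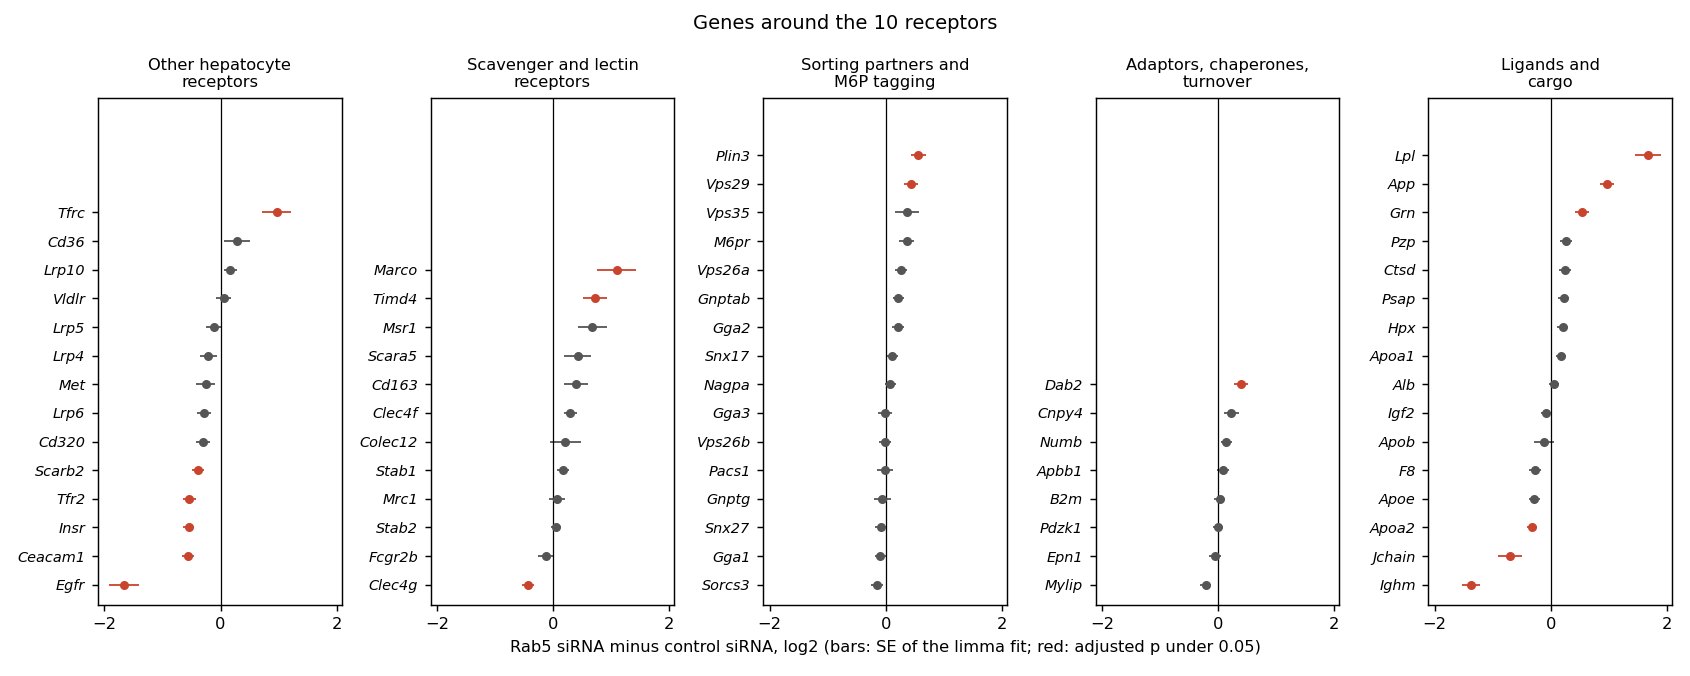
Difference of Rab5 siRNA minus control siRNA (log2, horizontal axis, bars SE of the limma fit) for the measured genes of 5 lists around the receptors, 1 gene per line, in red where the adjusted p was under 0.05. Most red points in the panel of other hepatocyte receptors lie to the left, down to Egfr at -1.66, while Lpl (1.67) and App (0.96) lead the ligands.

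Several of these receptors are also made by liver cells other than hepatocytes, and the markers of such cells moved between the groups. Of 13 measured Kupffer cell markers 8 rose and 0 fell, their mean log2 level lying between 8.33 and 8.68 in control siRNA livers and between 8.68 and 9.28 in Rab5 siRNA livers. Of 12 sinusoidal endothelial markers 1 rose and 4 fell (7.39 to 7.58 with control siRNA, 7.18 to 7.46 with Rab5 siRNA). Of 12 stellate cell markers 3 rose and 0 fell (7.23 to 7.62, then 7.38 to 7.93). Of 3 measured cholangiocyte markers 1 rose, Sox9, from a mean level of all 3 between 4.99 and 5.16 to one between 5.22 and 5.55. Of 8 lymphocyte and plasma cell markers Ighm fell, as did Jchain with the same limit of the filter (5.34 to 5.58, then 5.11 to 5.38). Of 11 hepatocyte markers 1 rose (Ahsg, 0.69) and 1 fell (Cps1, -0.35), with mean levels of 12.72 to 12.77 and 12.67 to 12.73. The list of scavenger and lectin receptors of the non-hepatocyte cells shares genes with these marker lists. Of its 12 genes 2 rose, Marco (1.09) and Timd4 (0.72), both already counted above as Kupffer cell markers. Only 1 fell, Clec4g (-0.43), already counted above as an endothelial marker. The part of non-hepatocyte cells in the falls of Pigr and Fcgrt was not tested.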

How the data were processed

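RNA of 10 livers was hybridised to Affymetrix mouse genome arrays, per the labels. The deposited table holds log2 values that, per the submitters' processing notes, involved RMA (robust multi-array averaging), Partek 6.6 and Affymetrix Expression Console, in an order not given. RMA brings the arrays' distributions close to each other, so a general shift of 1 group would not be seen. It also compresses changes of dim probe sets. The array medians of the deposited table were close but not equal, from 4.29 to 4.37. No detection calls or scan dates were used. The genome build is not given in the sources used here.

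Probe sets with exactly 1 symbol in the platform annotation (34945 of 45101) were used, 34741 of them with an Entrez identifier in RefSeq's GRCm38.p6 table; 1 probe set that names Igf2r together with another gene was set aside. Of these, 21068 lay above 4.33 in at least 2 arrays. All were fitted with limma 3.58.1 in R 4.3.3, 1 mean per group over all 10 arrays, checked on simulated data. The 5 pairs of genes were compared by exact permutation. Alternatives changed the filter, normalization, array weights, gene summary, block and arrays. The receptors and lists were chosen with earlier results of these data known. Named genes are every receptor probe set, the Rab5 genes, a fixed set of partners (some not reported here), and up to 5 called genes per list with the largest change; Scarb2 and Apoa2 fall outside this rule and were named after their values were seen, to complete their lists' counts.

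Arrays of a group correlated with r from 0.975 to 0.991 over kept probe sets. Same-numbered control and Rab5 siRNA arrays deviated together (r from 0.12 to 0.37 in all 4 pairs). This correlation was not computed for arrays of different numbers, so it is not known to be particular to same-numbered arrays. The titles do not say what the numbers stand for. The main fits and the permutation tests did not pair arrays. Pairing by number was used only in the replicate block and the sign-flip tests. No pair of arrays held the same values.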

Additional observations from a re-analysis of the deposited data

Results flagged for a closer look

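Among 98 groups of 4 arrays tested for a single distant value, 4 held one, and chance gives about 1 in 20. Rab5 siRNA replicate 2 was lowest for a Sorl1 probe set below the filter (1453003_at), at 2.27 against 2.69 to 2.72 in the other arrays of its group. Control siRNA replicate 3 was lowest for Ceacam1, at 9.44 against 9.50 to 9.51. Control siRNA replicate 1 was lowest for Lpl, at 6.90 against 7.68 to 7.82. Rab5 siRNA replicate 3 was lowest for Igf2, at 4.57 against 4.73 to 4.75.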

How the results depend on the processing

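Under the 21 alternatives, Pigr fell in every fit of Rab5 siRNA against control siRNA and against PBS, with both probe sets wherever both were fitted (by gene, 1 value stands for both). At most 20 receptor probe sets were tested, and 10 values in the fits by gene. Receptor probe sets called numbered 2 to 4 for Rab5 against control siRNA, with 2424 to 5886 calls over all features. Against PBS they numbered 3 to 4 when siRNA arrays were left out in turn (2561 to 4010 over all features). Some fits that left 1 PBS array gave fewer receptor calls than the main fit. With the mean of each gene's probe sets the receptor calls numbered 2 (2183). They numbered 5 under the 75th percentile filter (2960), median centring (3495), array weights (4614), and trend with robust eBayes (3467), against 4 in the main fit (3340). The replicate block, which pairs arrays by number, gave 3 receptor calls and 5790 calls in all for Rab5 against control siRNA, and changed no receptor call. Taken as pairs in an exact sign-flip test, chosen after seeing the data, none of the 5 gene pairs passed (adjusted p from 0.3125 to 0.5), and 4 pairs of arrays cannot give p under 0.125. Calls over all features for this comparison numbered 2993 for genes by their brightest probe set, 2915 by the mean of probe sets (fewer features are tested in both) and 2424 without the arrays numbered 2. Against PBS they numbered 2201, 2183 and 1170, and 1638 to 4010 with arrays left out in turn (1638 without PBS replicate 1, 1882 without PBS replicate 2). Control siRNA against PBS gave 3 calls after quantile normalization, 6 with array weights, 1 with the replicate block and 0 to 19 with arrays left out in turn (19 without control siRNA replicate 4, 4 without replicate 1). The difference between Asgr1 and Asgr2 changed by 0.0231 after quantile normalization, and by -0.0867 to 0.0234 with arrays left out. Several alternatives (other filters, the brightest probe set per gene, trend with robust eBayes, only the groups compared) leave each difference as it was. No sign could turn in those, nor where the array left out belonged to neither group compared. Signs turned in 40 of all 1191 recomputed receptor differences, unchanged ones included, none of them called, at most to -0.22. The cause was not tested. Dim probe sets (Sorl1, the second of Lrp1, the third of Sort1) limit what can be said of those transcripts.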

Other observations

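The probe set annotated to both Airn, the antisense transcript of the locus, and Igf2r lay between 3.31 and 3.96 in all 10 arrays, below the filter.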
